A study of Mus musculus with 62 samples.

Results

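The genes described here are the mouse box C/D small nucleolar RNA (snoRNA) genes, taken as the rows whose gene name starts with Snord and whose mean TPM (transcript level per length and per library total) was at least 1 over the 31 long-RNA libraries. Of 53975 gene rows, 99 carried such a name and 63 passed the threshold, and those 63 are the members. They were chosen by that mean TPM, which is a description and supports nothing here. Snord60 (1.06 TPM) and Snord1c (1.12 TPM) lay just inside the threshold, and Snord78 (0.989 TPM) and Snord90 (0.949 TPM) just outside it.

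The libraries came from the long-RNA fraction of 17 hippocampi and of 14 cultures of HT-22, an immortalized mouse hippocampal cell line. The mice were APP NL-G-F, whose own amyloid precursor protein gene carries a humanized, mutated amyloid sequence under its native promoter, or the wild type C57BL/6J, with the hippocampi of both hemispheres pooled per mouse. There were 3 APP NL-G-F and 2 wild-type mice at 3 months, 3 and 3 at 6 months, and 3 and 3 at 12 months. All HT-22 cultures, labelled passage 4, received a locked nucleic acid (LNA) for 24 h and then 30 uM peptide in DMSO: 4 cultures had scramble LNA (50 uM in the labels) and reverse 42-1 peptide, 4 had scramble LNA and amyloid beta 1-42, 3 had anti-Hsf1 LNA (150 nM) and reverse peptide, and 3 had anti-Hsf1 LNA and amyloid beta 1-42. No untreated culture is among them. The design text calls the HT-22 replicates biological, without saying how they were separated, so p-values measure the spread between these libraries.

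Box C/D snoRNAs guide ribose methylation of ribosomal and small nuclear RNA: a C box near one end and a D box near the other bind fibrillarin, Nop56, Nop58 and Snu13, and a stretch beside a D box pairs with the target. Most are cut out of introns of host genes, often genes for ribosomal proteins or translation factors, while a few have promoters of their own. The Snord115 and Snord116 arrays are processed from Snhg14, a neuronal transcript of the paternal allele in the Prader-Willi region, and guide no rRNA methylation; Snord115 can pair with the serotonin receptor transcript Htr2c.

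The members were 64 to 238 bases long (median 81) with a GC content of 29.6% to 65.1% (median 46.2%). The C box in the form TGATGA was in the first 20 bases of 41 members (65.1%), the D box CTGA was in the last 20 bases of 61 (96.8%), and 39 (61.9%) held both. Only the gene's own strand was searched. In regions of the same lengths 500 bases upstream the counts were 2 (3.17%), 7 (11.1%) and 0, and in the 47 rows of H/ACA and Cajal body RNAs (names starting Snora or Scarna), which guide pseudouridylation for the most part, they were 4 (8.51%), 10 (21.3%) and 4. As 4 of the H/ACA and Cajal body rows held both boxes, that class is not free of box C/D features. Absence of these letters says only that this spelling is not in the window. The biotype of 62 members was snoRNA, and the row named Snord43 was annotated as a miRNA.

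The sequences shown are those on which the results below turn: the pair in Rps3 with unequal levels, the near-identical set in Hspa8, the member with the highest ratio of HT-22 to hippocampus, the imprinted member, and one unnamed copy of the Htr2c-complementary array. They are read 5′ to 3′ on the gene's strand from GRCm38.p6. Capitals mark TGATGA near the 5′ end and the last CTGA, except in Gm24027, where they mark the 18 bases complementary to Htr2c.
Snord15b: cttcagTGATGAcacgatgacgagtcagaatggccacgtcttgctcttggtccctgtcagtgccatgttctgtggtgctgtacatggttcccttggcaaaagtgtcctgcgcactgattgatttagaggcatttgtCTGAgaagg
Snord15a: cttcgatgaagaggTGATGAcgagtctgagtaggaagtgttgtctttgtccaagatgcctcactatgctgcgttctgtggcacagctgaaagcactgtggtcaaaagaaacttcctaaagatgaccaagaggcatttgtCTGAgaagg
Snord14c: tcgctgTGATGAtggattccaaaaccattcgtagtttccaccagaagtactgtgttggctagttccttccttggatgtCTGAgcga
Snord14d: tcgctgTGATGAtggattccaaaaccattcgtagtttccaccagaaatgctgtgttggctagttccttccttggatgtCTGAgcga
Snord14e: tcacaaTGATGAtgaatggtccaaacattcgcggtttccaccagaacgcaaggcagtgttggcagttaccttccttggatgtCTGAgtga
Snord93: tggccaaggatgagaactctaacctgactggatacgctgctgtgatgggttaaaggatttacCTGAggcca
Snord116l12: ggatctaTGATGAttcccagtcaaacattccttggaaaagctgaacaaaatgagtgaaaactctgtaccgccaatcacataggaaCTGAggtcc
Gm24027: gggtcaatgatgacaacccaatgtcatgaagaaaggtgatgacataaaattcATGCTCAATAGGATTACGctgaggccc
Snord15b lies at chr7:99479563-99479707 and Snord15a at chr7:99482785-99482932, both on the minus strand inside Rps3, a ribosomal protein gene. Snord14c is at chr9:40803583-40803668, Snord14d at chr9:40803995-40804080 and Snord14e at chr9:40804748-40804837, on the plus strand inside Hspa8, the constitutive heat shock cognate chaperone gene. Snord93 is at chr5:23852210-23852280 on the plus strand in the noncoding gene 2700038G22Rik. Snord116l12 is at chr7:59904755-59904848 and Gm24027 at chr7:59460677-59460755, both on the minus strand within Snhg14. Snord14c and Snord14d were 97.7% identical, and each was 79.6% identical to Snord14e, so reads can be shared or split between them. Snord15a and Snord15b were only 66.0% identical. The other close pairs were Snord50a and Snord50b (98.6%) and Snord1b and Snord1c (97.4%), and their separate values are uncertain for the same reason.

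A host on the same strand was found for 59 members, which lay in 45 hosts: 43 members in protein-coding hosts and 16 in noncoding ones. The hosts holding 3 members each were 2410006H16Rik (Snord49a, Snord49b and Snord65), Rpl13a (Snord32a, Snord34 and Snord35a) and Hspa8. Snord104, Snord118, Snord13 and Snord60 lay in no host. Of the members, 20 were wholly inside an annotated exon of another gene on the same strand, Snord15b among them, so reads of that transcript can count for the member. The sources used here do not state how strand was treated in the counting.

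Levels are given as scaled TPM, that is TPM divided by a factor per library from the median of ratios over 14020 genes above 0 in all 31 libraries. TPM is per length, which puts members on a common scale. How much of each RNA the long-RNA fraction kept is not known here, so comparisons between members carry that limit. The members are short, and they were measured in the fraction left after short RNA had been enriched into another sample and rRNA had been depleted: the levels are of what remained in that fraction. In bulk RNA, fewer cells of a type and less RNA per cell cannot be told apart. Relative depth, read from the ratio of deposited coverage to FPKM, was 1.42 to 3.04 in hippocampus and 0.724 to 2.60 in HT-22, and the median member had a coverage of 1.44 to 3.89 and 3.28 to 19.0 reads per base. Between 2 and 11 members were listed at 0 in a hippocampal library and between 1 and 5 in an HT-22 library, and 30 were above 0 in all 31.

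The 8 neuronal markers summed to 2147 to 4052 scaled TPM in hippocampus and to 0.0469 to 0.858 in HT-22, where Rbfox3, Snap25, Syt1 and Gad1 were at 0 in every library. Xist was 95.6 to 192 in all 9 APP NL-G-F libraries and both wild-type libraries of 3 months, and 0.362 to 0.709 in the wild-type libraries of 6 and 12 months, which alone had Ddx3y (24.9 to 37.2). Genotype and sex therefore cannot be told apart at 6 and 12 months, nor age and sex in wild type. Hsf1, the target of the LNA, was 42.8 ± 6.38 (SD, n = 4) with scramble and 32.8 ± 2.75 (n = 3) in libraries labelled anti-Hsf1 under amyloid beta. Under reverse peptide it was 37.4 ± 5.50 (n = 4) and 33.4 ± 3.27 (n = 3). By replicate it was 34.1, 43.1, 44.4 and 49.5 against 30.1, 35.6 and 32.5 under amyloid beta. Under reverse peptide the values were 37.0, 30.0, 42.9 and 39.7 against 36.4, 29.9 and 33.9. The groups overlapped under both peptides. In HT-22, 3 scramble libraries (amyloid beta replicates 3 and 4, reverse peptide replicate 4) stood apart, with Egr1 at 150 to 226 against 16.95 to 29.1 in the other 11 and Fos at 25.6 to 46.5 against 1.78 to 4.73. Without them the scramble values of Hsf1 were 34.1 and 43.1 under amyloid beta and 30.0 to 42.9 under reverse peptide, and the groups still overlapped. Comparisons within HT-22 are given with and without them, and a level is given without them where its HT-22 mean moved by over 1.5 times.

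Hippocampus and HT-22 differed in the order and the evenness of their snoRNA levels, but tissue and experiment cannot be told apart, so these levels are a description with no test. Snord15b, which guides methylation in large-subunit rRNA, stood highest in both. In wild-type hippocampus it was 185 and 149 at 3 months, 377, 308 and 454 at 6 months, and 199, 239 and 243 at 12 months. In APP NL-G-F it was 212, 358 and 170 at 3 months, 257, 267 and 251 at 6 months, and 275, 248 and 311 at 12 months. The lowest hippocampal library thus stood above the highest HT-22 library, since the 14 HT-22 libraries ran from 31.3 to 86.6. The hippocampal mean of 264.9 ± 78.6 (SD, n = 17) was 5.60-fold that of HT-22 (47.3 ± 15.3, SD, n = 14). Its host Rps3 had the opposite order, with 135 in hippocampus and 233 in HT-22. With TPM as deposited the mean of Snord15b was also higher in hippocampus (194.9 against 69.6), but the ranges, 121 to 281 and 40.3 to 153, then overlapped.

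Snord17, which lies in Snx5 and is the longest member, came next at 84.9 in hippocampus and 39.2 in HT-22. Its ranges overlapped (31.03 to 170 and 20.04 to 61.8), and with deposited TPM the means were nearly the same at 61.1 and 57.2. Together these RNAs took much of the hippocampal signal: Snord15b held 43.0% of the summed member level in hippocampus and 7.16% in HT-22, and Snord17 held 13.8% and 5.93%. Snord15a, the other member in Rps3, did not share the level of Snord15b. It averaged 11.7 in hippocampus (0.756 to 25.3) and 11.4 in HT-22 (2.70 to 29.5), although 1 host gene holds both.

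**Figure D1:**
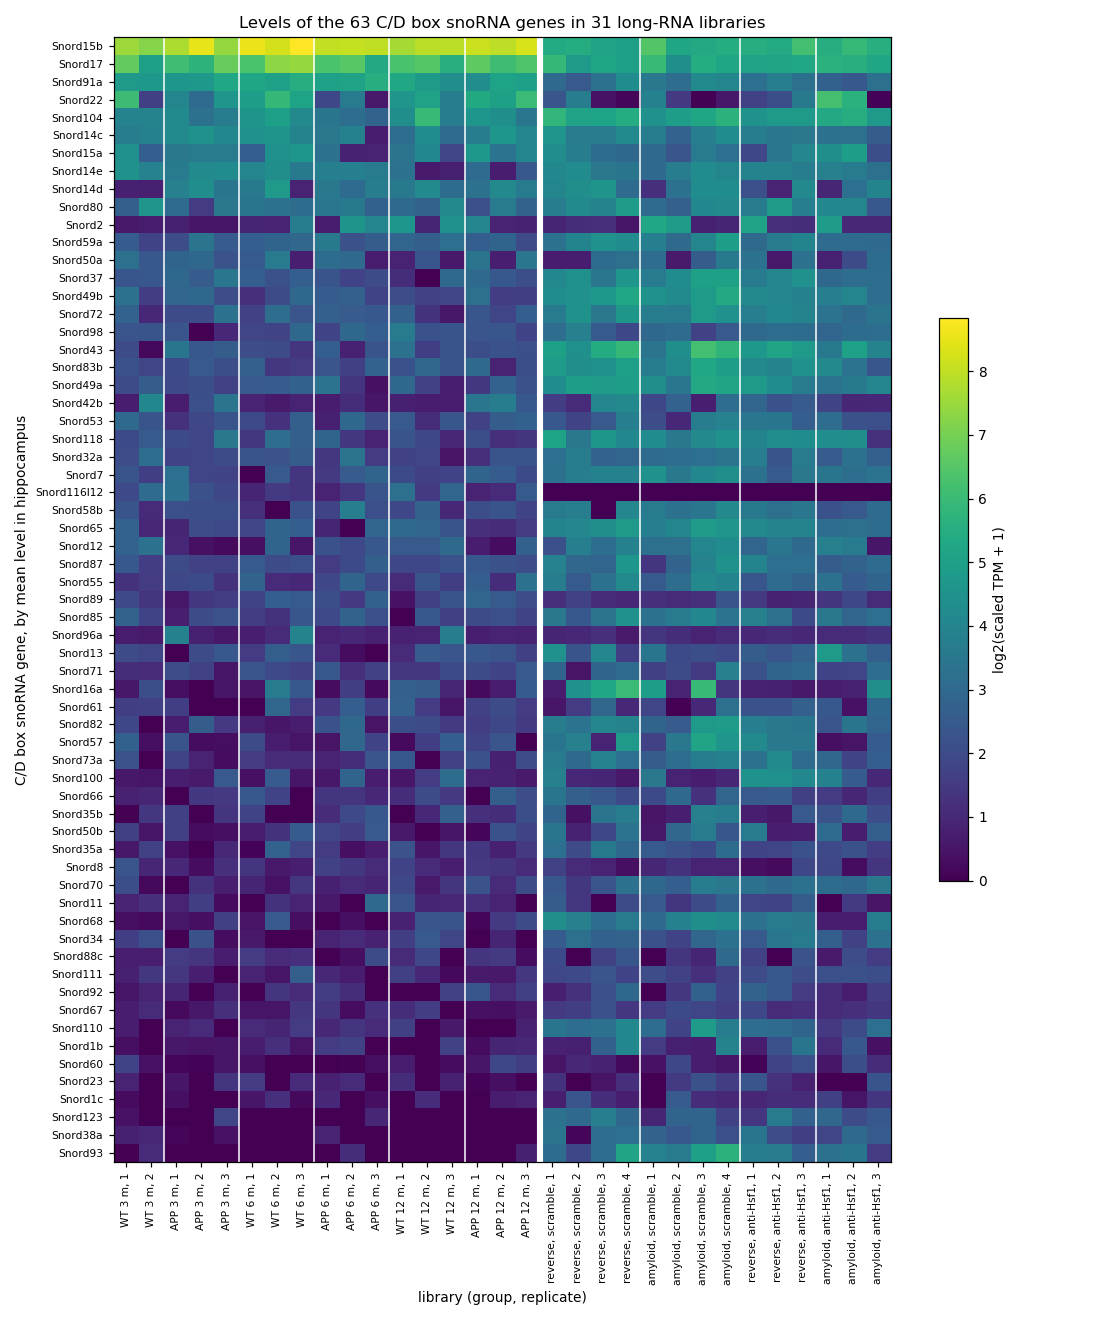
Scaled TPM of the 63 members (rows) in the 31 libraries (columns, by group) as log2(scaled TPM + 1). Snord15b and Snord17 are high in every library. Most other members are low in the hippocampal columns, where 9 of the 63 average above 10 scaled TPM. Snord116l12 is at 0 in all 14 HT-22 libraries.

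The other members leaned to HT-22, and the selection rule enters that lean. A mean TPM of at least 1 was reached by 50 members in hippocampus, 62 in HT-22 and 49 in both. Members that passed over the 31 libraries only through 1 system carry its direction, so the medians and counts below are a description. They were not made for the 49 alone. The median member level was 3.10 in hippocampus and 9.17 in HT-22, with 9 members above 10 in hippocampus and 26 in HT-22. By mean, 11 members were higher in hippocampus and 52 in HT-22; with TPM as deposited the counts were 7 and 56, and Snord14c, Snord15a, Snord50a and Snord8 changed direction. The median of the 19596 genes that pass the same threshold moved from 0.12 to -0.67 (log2, hippocampus over HT-22) between these scalings. Every hippocampal library was above every HT-22 library for 3 members (Snord15b, Snord91a and Snord116l12), against 30.9% of those genes, and the reverse held for 2 (Snord65 and Snord93), against 17.7%. With deposited TPM the counts were 1 (Snord116l12; 19.9% of genes) and 8 (26.2%). Without the 3 HT-22 libraries that stood apart, 11 and 52 members were again higher by mean, with Snord14d and Snord15a trading direction, and the median HT-22 level was 7.94, with 21 members above 10. Across the 63 members, the Spearman correlation of the hippocampal with the HT-22 level was 0.63, with the same genome and scaling behind both, and that of length with level was 0.15 in hippocampus.

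Snord91a, which guides methylation in large-subunit rRNA and lies in Tsr1, was the third in hippocampus at 30.99 ± 7.59 (SD, n = 17), 3.11-fold its HT-22 mean of 9.95 ± 4.61 (SD, n = 14). Its lowest hippocampal library was at 18.9 and its highest HT-22 library at 18.8, so the groups nearly touched, and with deposited TPM they overlapped. Snord43, which lies in the ribosomal protein gene Rpl3, had the opposite order. It was 0.13 to 9.75 in hippocampus and 9.44 to 71.6 in HT-22, which just overlapped, with a mean 8.32-fold higher in HT-22, while Rpl3 itself was at 169 and 176. These ratios rest on the scaling: with deposited TPM Snord91a was 1.54-fold higher in hippocampus (23.2 against 15.1), and Snord43 was 16.97-fold (2.90 against 49.2) and Rpl3 2.06-fold (126.8 against 261.3) higher in HT-22. Snord49a and Snord49b, both in the noncoding gene 2410006H16Rik, were 5.74-fold and 4.90-fold higher in HT-22, where they averaged 21.5 and 20.8. Their host was higher in HT-22 as well, at 58.6 against 26.3.

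Snord93, Snord38a and Snord123 had the widest ratios toward HT-22 and were singled out after their values were seen. Their mean TPM was 0.146, 0.153 and 0.183 in hippocampus and 23.3, 8.11 and 8.79 in HT-22. They passed the threshold only through HT-22, so the selection favours this direction, and the ratios rest on hippocampal values near 0. Snord93 was listed at 0 in 14 of 17 hippocampal libraries and at 0.703 to 1.204 in the others, where its coverage was 0.648 to 1.00 reads per base, and at 1.96 to 49.9 in HT-22. Its HT-22 mean of 14.98 was 85.8 times the hippocampal mean of 0.175, and without the 3 HT-22 libraries that stood apart, which hold its highest values, the mean was 8.53 and the ratio 48.9. With deposited TPM the ratio was 159.3 over all 14 libraries. Its host 2700038G22Rik was 0.826 in hippocampus and 5.02 in HT-22. Snord123 (0.229 and 5.99) followed its host Snhg18 (1.01 and 14.4) in direction, and Snord38a was 0.180 and 5.40. On scaled TPM, 42 of the 59 members with a host differed between the systems in the same direction as the host. That count depends on how many members and hosts were higher in HT-22, and agreement beyond this was not tested. Only 5 members in hippocampus and 2 in HT-22 had a mean level above the host's.

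The remaining members were lower. In hippocampus 13 of the 63 had a mean deposited TPM under 1 and did not enter the tests: Snord93, Snord68, Snord110, Snord123, Snord38a, Snord1b, Snord111, Snord92, Snord88c, Snord67, Snord23, Snord1c and Snord60. In HT-22 Snord116l12 alone did not. Among members in ribosomal protein genes, Snord83b in Rpl3 was 3.75 in hippocampus and 20.1 in HT-22, and Snord32a in Rpl13a was 3.52 and 8.13. Snord34 and Snord35a, the others in Rpl13a, were 1.33 and 6.42, and 1.502 and 4.65. Snord57 and Snord110, which lie in the gene for the core protein Nop56, were 2.22 and 11.8 (7.38 without the 3 libraries), and 0.796 and 9.17. Snord11 and Snord70, in the gene for Nop58, were 1.36 and 2.64, and 1.41 and 7.40. All of these had the higher mean in HT-22 on scaled and on deposited TPM. They were named after their values were seen, for their hosts.

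**Figure D2:**
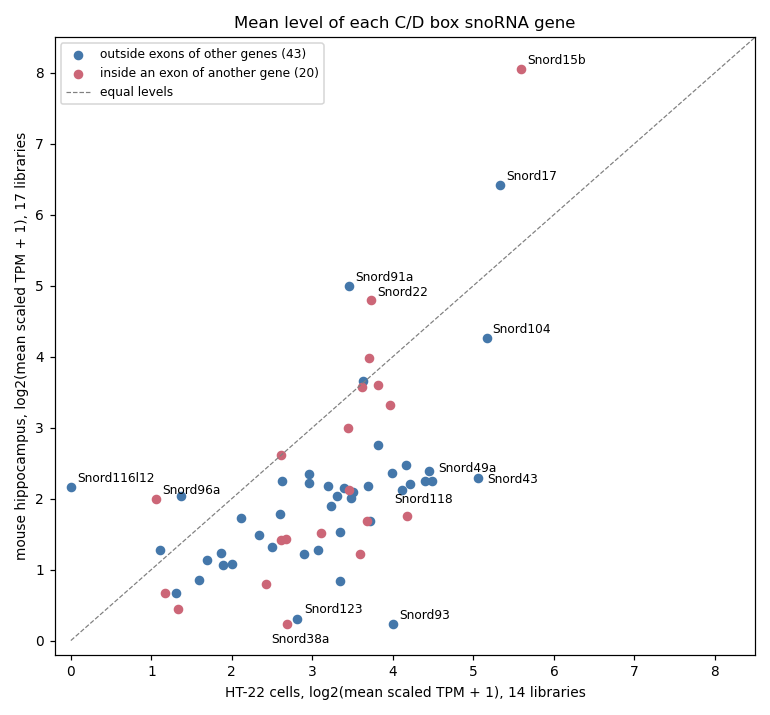
Mean level of each of the 63 members as log2(mean scaled TPM + 1), with 14 HT-22 libraries on the x axis and 17 hippocampal libraries on the y axis; red points lie inside an exon of another gene (20), blue points do not (43), and the dashed line marks equal levels. Most points lie below the line, while Snord15b (264.9 in hippocampus and 47.3 in HT-22), Snord17, Snord91a and Snord116l12 lie above it.

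The members with promoters of their own or without a methylation target differed from one another. Snord118 (U8), needed for large-subunit rRNA processing, averaged 3.60 in hippocampus and 17.5 in HT-22, a 4.86-fold ratio, with ranges of 0.83 to 10.6 and 1.39 to 33.6 that overlapped. Snord13 (U13), which guides acetylation in small-subunit rRNA, averaged 2.70 and 8.39, with ranges of 0 to 5.31 and 2.09 to 26.1. Among the other abundant members, Snord104, a large-subunit guide, was 6.08 to 61.7 in hippocampus (mean 18.2) and 21.1 to 55.1 in HT-22 (mean 34.8). Snord22, which lies in Snhg1, a noncoding host of many snoRNAs, varied widely, from 0.508 to 65.7 in hippocampus and from 0.034 to 74.3 in HT-22.

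The U14 set in Hspa8, needed for small-subunit rRNA processing as well as methylation, had means that differed by at most 1.22-fold between the systems on scaled TPM, and higher means in HT-22 on deposited TPM. Snord14c averaged 14.8 in hippocampus and 12.1 in HT-22, Snord14d 10.9 and 11.3, and Snord14e 11.1 and 13.04. As deposited they were 10.6 and 18.1, 7.91 and 16.8, and 8.39 and 19.3. These are far below Hspa8 itself, at 662 and 544 scaled TPM. Single copies dropped to about 1 read of coverage in some libraries. Snord14d was 0.730 and 0.728 in the wild-type hippocampi of 3 months and 0.862 in one of 6 months, where its coverage was 0.647 to 0.959, and at least 7.42 in every other hippocampal library. Snord14e was 0.546 and 0.711 in wild-type replicates 2 and 3 of 12 months and 0.639 in APP NL-G-F replicate 2 of that age, against at least 4.26 elsewhere in hippocampus. The sum of the copies ran from 15.8 to 67.5 over all libraries.

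The same step between about 1 read of coverage and a level at least 5-fold higher, with at least 2 libraries on each side, appeared in 6 members, a rule set after the values were seen: Snord14d, Snord14e, Snord2, Snord61 and Snord96a in hippocampus, and Snord2 and Snord68 in HT-22. Snord2 was at 0.408 to 0.895 in 11 of 17 hippocampal libraries and at 12.4 to 23.9 in the other 6, which came from APP NL-G-F and wild type at 6 and 12 months. In HT-22 it was 28.4 to 37.5 in 4 libraries and 0.450 to 1.33 in 10, with both levels found in 3 of the 4 groups. Snord96a was 13.8, 14.5 and 12.0 in single libraries of 3 hippocampal groups and 0.496 to 1.13 in the rest. Of these 6 members, all but Snord61 lie inside an exon of another gene. The within-group SD (log2) had a median of 0.95 over 15 members inside exons and 0.74 over 35 outside in hippocampus, and 1.14 over 20 and 0.62 over 42 in HT-22. Whether the level of the exon contributes to the low values was not tested.

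The imprinted arrays were at or near 0 in the cell line, and Snord116l12 passed the threshold only through hippocampus. Snord116l12 was 2.90 and 7.51 in wild type at 3 months, 0.868, 1.80 and 1.52 at 6 months, and 8.55, 1.81 and 6.38 at 12 months. In APP NL-G-F it was 8.80, 3.61 and 2.79 at 3 months, 0.855, 1.65 and 3.88 at 6 months, and 0.857, 1.06 and 4.64 at 12 months. It was listed at 0 in all 14 HT-22 libraries, so no fold is given. It was the one member of the locus, since the next of 17 named Snord116 rows, Snord116l4 and Snord116l17, had mean TPM of 0.483 and 0.468, and Snord107 (0.435) and Snord64 (0.305) were below the threshold as well. Of these rows below the threshold, only Snord107 was above 0 in HT-22, with a mean TPM of 0.168 against 0.656 in hippocampus. The host Snhg14 ran from 247 to 434 in hippocampus and from 1.23 to 3.40 in HT-22.

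No row carried the name Snord115, yet 127 unnamed snoRNA rows within Snhg14 held a stretch complementary to Htr2c transcripts, of which 7 were searched. They are not members and are described beside them. The stretch was 18 bases in 101 rows, the longest was 19, and 122 of the rows were 79 bases long, as Gm24027 is above; the 127 rows held 47 distinct sequences, the commonest in 33 rows, so single rows cannot be measured apart and only their sum is given. The sum was 348 and 253 in wild type at 3 months, 526, 421 and 445 at 6 months, and 469, 430 and 447 at 12 months. In APP NL-G-F it was 513, 525 and 451, then 476, 534 and 470, then 467, 394 and 361. At 3 months every APP NL-G-F library was above both wild-type libraries (496.7 ± 39.6, SD, n = 3, against 300.6 ± 66.6, n = 2), at 6 months the ranges overlapped, and at 12 months they overlapped with means of 407 ± 54.3 and 448 ± 19.4 (n = 3 each). The host Snhg14 did not overlap at 3 months either (343, 357 and 294 against 281 and 273), and overlapped at 6 and 12 months. The summed levels of the rows were not tested. In HT-22 the sum was 0 in 13 libraries and 0.671 in one.

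The 70 rows like Snord116 (17 named, 53 unnamed) summed to 38.9 to 87.4 in hippocampus, and 13 snoRNA rows in Rian, the maternally expressed host of a second imprinted array, summed to 66.0 to 122. Both sums were 0 in every HT-22 library. A further 11 snoRNA rows within Snhg14 were in neither of its arrays, and their sum reached at most 0.596 in HT-22. The summed level of the Htr2c-complementary rows was of the same order as that of the 63 members together, 395 to 925 in hippocampus.

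**Figure D3:**
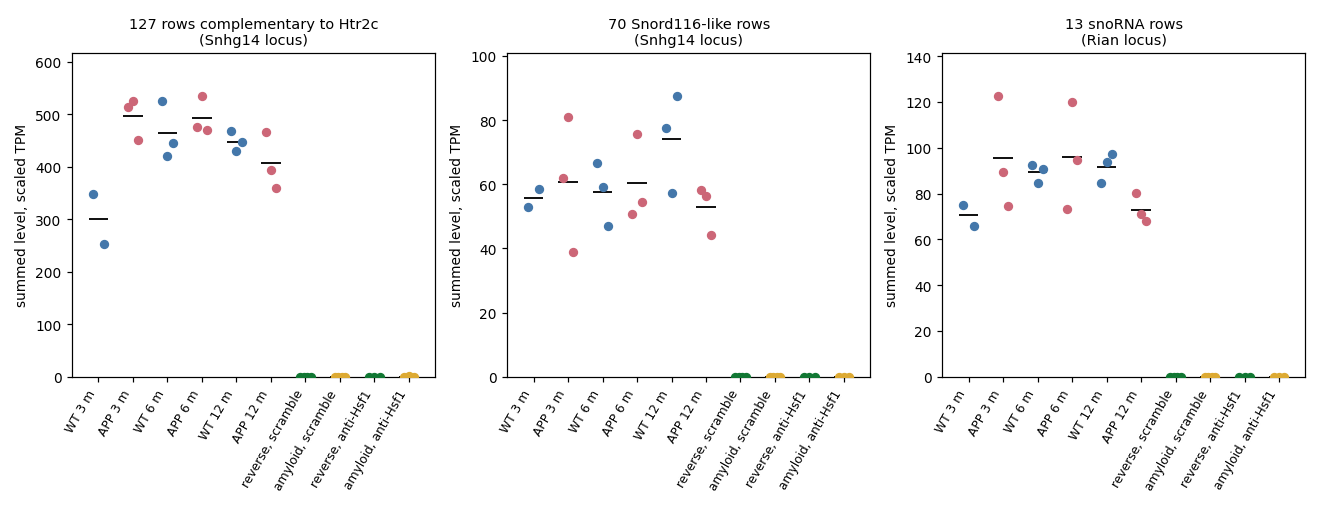
Summed scaled TPM per library of 127 Htr2c-complementary rows, 70 rows like Snord116 and 13 Rian rows, with 1 point per library and group means as bars. The hippocampal libraries lie at 253 to 534, 38.9 to 87.4 and 66.0 to 122, and the HT-22 libraries at or near 0.

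Between genotypes at 3 months no member passed the limma test: 0 of 50 tested, against 0.275% of 17840 genes. At an unadjusted p under 0.05 there were 3 members (6.00%), against 12.9% of genes, and each alternative setting also called 0 (with TPM as deposited, 0.398% of genes). The median member change was -0.09 (log2, APP NL-G-F over wild type; 23 above 0 and 27 below), against 0.00 over all genes. Snord14d had the lowest adjusted p: with levels of 13.5, 18.9 and 9.89 in APP NL-G-F and 0.730 and 0.728 in wild type the change was 3.08 (SE 0.74, 95% interval 1.496 to 4.67, adjusted p = 0.102). The groups did not overlap, and its near-identical neighbour Snord14c was 17.3, 21.9 and 16.2 against 12.3 and 13.6, a change of 0.47 (-0.99 to 1.93). The sum of Snord14c, Snord14d and Snord14e was 42.6, 58.3 and 44.4 against 34.6 and 28.5. Snord43 was 9.75, 4.29 and 5.10 against 3.11 and 0.13, without overlap, a change of 1.71 (0.44 to 2.97, adjusted p = 0.219). The wild-type library at 0.13 had a coverage of 0.116, and without it the change was 0.77. For Snord15b the change was 0.50 (-0.02 to 1.01; 0.19 without APP NL-G-F replicate 2), and for Snord116l12 it was -0.05 (-1.34 to 1.23; -0.61 and 0.51 without either wild-type library). The striatal and thalamic markers summed to 68.3 to 549 in APP NL-G-F at 3 months and to 45.5 to 147 in the other hippocampal groups, and their part was not tested.

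At 6 months several abundant members had lower means in APP NL-G-F, and none passed: 0 of 50, against 1.57% of genes, with 8 members (16%) and 17.3% of genes at an unadjusted p under 0.05. Snord22 was 2.79, 11.7 and 0.508 in APP NL-G-F and 29.6, 57.8 and 33.7 in wild type, with no overlap. Its change was -3.25 (SE 0.96, -5.32 to -1.18, adjusted p = 0.103). Without APP NL-G-F replicate 1 of that age, Snord15a was called lower (-3.07, adjusted p = 0.0458; 1.3% of genes). Snord104 was 9.87, 8.15 and 6.08 against 22.7, 30.7 and 16.8, and Snord13 was 1.12, 0.22 and 0 against 1.90, 5.31 and 4.13. Neither overlapped either, with changes of -1.42 (-2.38 to -0.46, adjusted p = 0.118) and -1.73 (-2.89 to -0.56, adjusted p = 0.116). Snord14c was 10.4, 13.7 and 0.592 against 21.7, 22.6 and 14.4, without overlap, a change of -1.65 (-2.96 to -0.35, adjusted p = 0.174). Its value of 0.592 came from a coverage of 0.549 in APP NL-G-F replicate 3, and without that library the change was -0.64. Snord15b was 257, 267 and 251 against 377, 308 and 454, all below wild type, a change of -0.54 (SE 0.22, -0.997 to -0.08, adjusted p = 0.210). Snord17 was 80.2, 90.9 and 38.9 against 79.3, 159 and 170, which overlapped, a change of -0.96 (-1.91 to -0.01, adjusted p = 0.286), or -0.59 without APP NL-G-F replicate 3.

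The whole set did not shift at that age: 24 members were above 0 and 26 below, with a median of -0.01, against 0.04 over all genes. The summed level was nonetheless lower, at 554, 622 and 504 in APP NL-G-F and 704, 831 and 925 in wild type. Without Snord15b and Snord17 the sums were 215 to 264 and 248 to 364, with means of 232 and 304, and overlapped. The H/ACA and Cajal body RNAs had a median change of -0.78 (32 of 40 below 0, 0 called), and Rn7sk, a regulator of transcription elongation, fell by 2.48 (SE 0.32, adjusted p = 0.00228) and stood at 1902 to 4846 against 17744 to 18962 scaled TPM in wild type. Protein-coding genes took 36.2% to 51.0% of TPM in APP NL-G-F and 26.6% to 28.5% in wild type. With TPM as deposited, where 58.0% of genes were called, 7 members were called, 5 higher (Snord82, Snord58b, Snord7, Snord91a and Snord8) and 2 lower (Snord22 and Snord13). Their direction therefore rests on the scaling for Snord91a, which was -0.05 (-0.59 to 0.48) on scaled TPM and 0.60 (adjusted p = 0.0471) on deposited TPM.

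**Figure D4:**
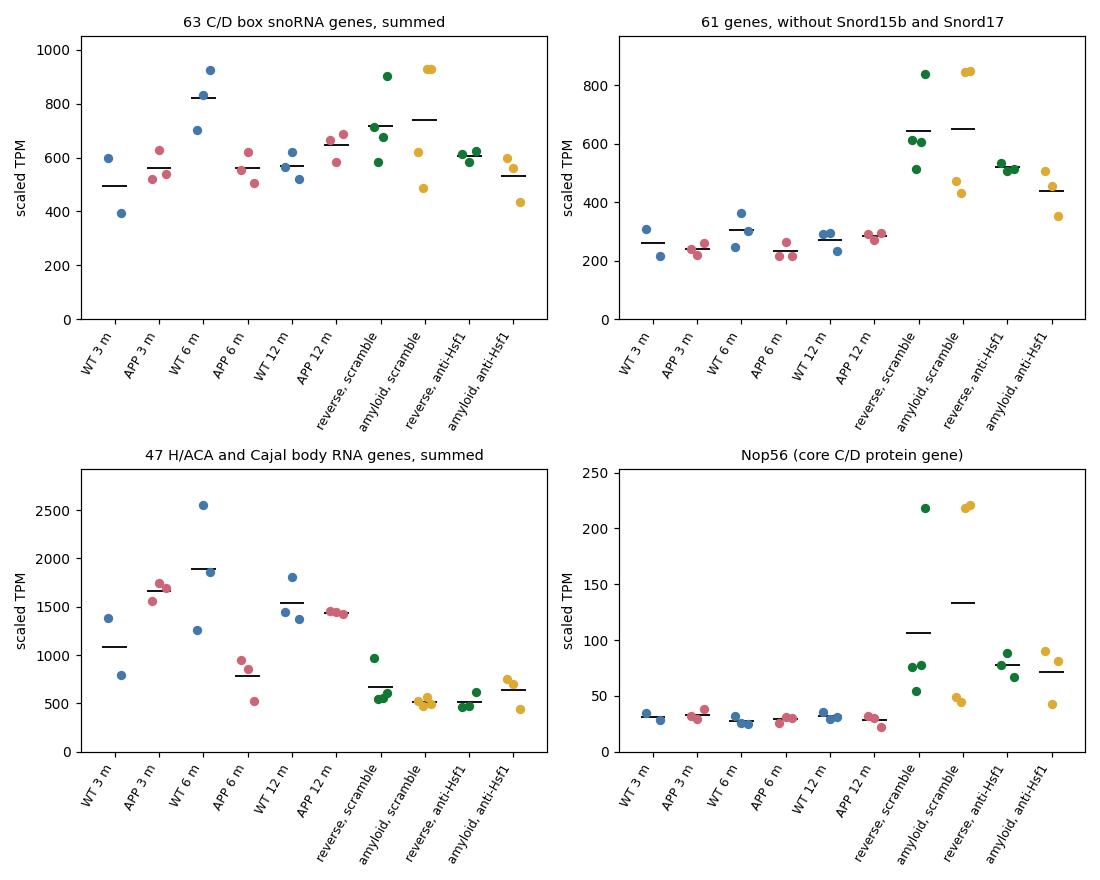
Summed scaled TPM per library of the 63 members, of 61 members without Snord15b and Snord17, and of 47 H/ACA and Cajal body RNAs, and the level of Nop56, with 1 point per library and group means as bars. Wild type at 6 months has the highest hippocampal member sums (704 to 925), and 3 scramble HT-22 libraries lie at 901 to 929 with Nop56 at 218 to 221.

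At 12 months 0 of 50 members passed, against 0.443% of genes, and 6 members (12.0%) against 6.99% of genes had an unadjusted p under 0.05. The median change was 0.16 (30 above 0, 20 below), against 0.00 for all genes. The lowest adjusted p values belonged to members outside the naming rule, given after their values were seen. Snord34, in the ribosomal protein gene Rpl13a, was 0, 0.868 and 0 in APP NL-G-F and 2.12, 4.48 and 2.63 in wild type. Snord42b was 10.0, 12.1 and 4.39 against 0.713, 0.592 and 0.602. Neither pair of groups overlapped, and the changes were -1.68 (-2.68 to -0.69, adjusted p = 0.214) and 2.49 (0.99 to 4.00, adjusted p = 0.240). When the 12-month groups were fitted alone, Snord42b was called (adjusted p = 0.0217; 0.426% of genes), and with TPM as deposited no member was (0.639% of genes). Without wild-type replicate 3, Snord37 was called (1.96, adjusted p = 0.0411; 0.224% of genes). For Snord15b the change was 0.29 (-0.17 to 0.75), for Snord17 0.26 (-0.69 to 1.22; -0.02 without wild-type replicate 3) and for Snord22 0.996 (-1.08 to 3.07; 0.63 without the same library).

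With age, 0 of 50 members passed from 3 to 12 months in APP NL-G-F, against 3.01% of genes (unadjusted, 3 members and 16.3% of genes), and 0 in wild type, against 0.0617% (5 members and 8.32%). Both counts were 0 on deposited TPM as well, against 1.6% and 0.118% of genes. Snord14e had the same direction in both. It was 11.8, 17.6 and 18.3 at 3 months and 7.55, 0.639 and 4.26 at 12 months in APP NL-G-F, and 21.6 and 14.2 then 9.07, 0.546 and 0.711 in wild type. Neither overlapped, with changes of -1.99 (-3.32 to -0.65, adjusted p = 0.111) and -2.63 (-4.12 to -1.14, adjusted p = 0.298). Without APP NL-G-F replicate 2 of 12 months, where the level was 0.639, the first was -1.31, and without wild-type replicate 1 of 12 months, at 9.07, the second was -3.51 and called (adjusted p = 0.0264; 0.0448% of genes). Snord14d in wild type had a change of 2.84 (1.25 to 4.43, adjusted p = 0.285), called when those groups were fitted alone (adjusted p = 0.0462; 0.0841% of genes), and in APP NL-G-F -0.17 (-1.59 to 1.25). The host Hspa8 was not called. Snord116l12 had a change of -0.997 (-2.15 to 0.15) in APP NL-G-F and 0.02 (-1.27 to 1.301) in wild type, and leaving out single libraries moved these to between -1.51 and -0.59 and between -0.55 and 0.58. These comparisons share the 3-month and 12-month libraries with those between genotypes.

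The genotype difference was not shown to change with age for any member. The interaction was a joint F test of the differences at 6 and 12 months against that at 3 months. It called 0 of 50, against 0.499% of genes, with 8 members (16%) and 15.8% of genes at an unadjusted p under 0.05. Snord34 was called without APP NL-G-F replicate 2 of 3 months (adjusted p = 0.0319; 0.902% of genes). For Snord15b the genotype difference at 6 months stood below that at 3 months (log2 -1.04, SE 0.32, -1.72 to -0.35, adjusted p = 0.183 for the interaction). For Snord14d the same term was -2.71 (-4.84 to -0.58). The F test also covers the difference at 12 months, and no pair of ages was given a p-value of its own. The member with the lowest adjusted p was Snord12 (adjusted p = 0.136), named after its value was seen, with 0.993, 0.332 and 0.177 in APP NL-G-F and 5.79 and 8.94 in wild type at 3 months, and 3.73, 2.90 and 4.29 against 0.278, 6.11 and 0.452 at 6 months. It stood below wild type at 3 months and overlapped it at 6. Leaving out wild-type replicate 2 of 6 months called Snord12 (adjusted p = 0.0424, with 0.46% of genes called). Leaving out replicate 3 of that group called Snord14d (adjusted p = 0.0160, with 0.364% of genes called), where the term for 6 months was -3.80. The interaction called 3 members on deposited TPM (Snord34, Snord12 and Snord8), where 33.1% of genes were called.

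**Figure D5:**
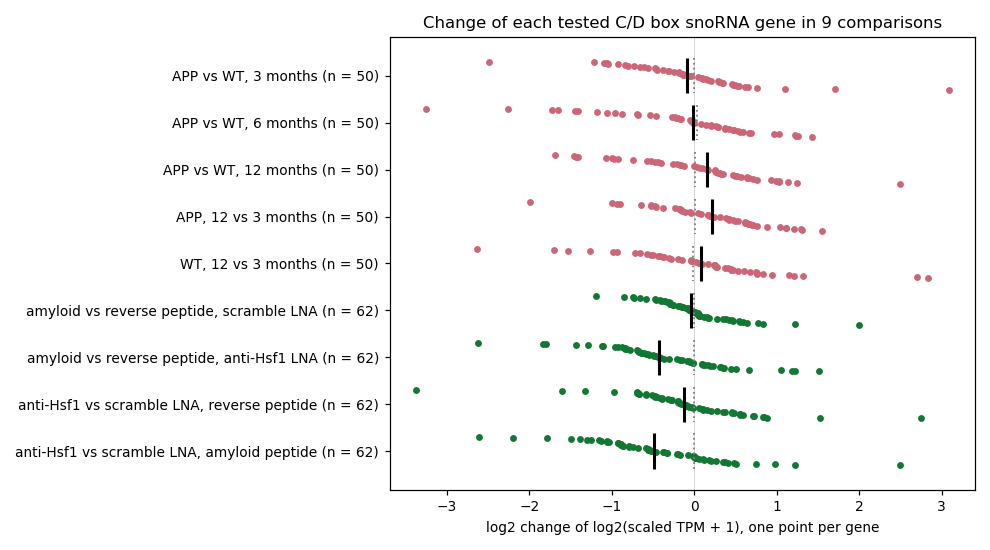
Log2 change of each tested member (points) in 9 comparisons, 5 in hippocampus (50 members) and 4 in HT-22 (62 members); black bars are the members' medians and dotted lines the medians of all genes. The medians run from -0.09 to 0.22 in hippocampus, and the lowest in HT-22 is -0.49 for anti-Hsf1 against scramble LNA under amyloid beta.

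In HT-22, amyloid beta against reverse peptide called no gene with either LNA (0.0% of 17291 genes each), and 0 of 62 members. At an unadjusted p under 0.05 there were 2 members (3.23%; 4.99% of genes) with scramble LNA and 7 (11.3%; 4.63%) with anti-Hsf1 LNA. The median member change was -0.04 (28 above 0, 34 below) and -0.42 (18 above 0, 44 below), against 0.00 for all genes. With scramble LNA, Snord15b was 86.6, 36.7, 39.5 and 43.7 under amyloid beta and 41.0, 43.6, 33.1 and 31.3 under reverse peptide. These overlapped, with a change of 0.38 (-0.16 to 0.92), or 0.11 without amyloid beta replicate 1, the library at 86.6. Snord104 was 21.1, 29.3, 36.7 and 50.6 against 55.1, 33.0, 34.2 and 43.5, which overlapped as well (-0.30, -0.83 to 0.23; -0.09 without amyloid beta replicate 1 and -0.50 without replicate 4). Without the 3 libraries that stood apart, the scramble comparison had a median member change of -0.22 and 0 called (0.00578% of genes), with 7 members (11.3%) and 7.51% of genes at an unadjusted p under 0.05, and the changes were 0.52 for Snord15b and -0.65 for Snord104. With anti-Hsf1 LNA the lowest p was that of Snord65, in 2410006H16Rik, at 8.17, 8.49 and 7.65 under amyloid beta and 16.95, 14.6 and 14.3 under reverse peptide. The groups did not overlap, and the change was -0.84 (-1.39 to -0.29, adjusted p = 0.985). With TPM as deposited, where 24.3% of genes were called, 8 members were called lower with anti-Hsf1 LNA, Snord65 among them.

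Anti-Hsf1 against scramble LNA under reverse peptide called 0 of 62 members and 0.0% of genes, with 7 members (11.3%) and 3.71% of genes at an unadjusted p under 0.05 and a median member change of -0.13. Snord104 was 22.4, 25.7 and 26.4 in libraries labelled anti-Hsf1 and 33.0 to 55.1 with scramble, with no overlap, a change of -0.69 (-1.26 to -0.11, adjusted p = 0.959). Under amyloid beta the same contrast called 0 of 62 members and 0.0231% of genes, but Snord68 was called without anti-Hsf1 replicate 3 (adjusted p = 0.00736; 0.0868% of genes), and 15 members (24.2%) had an unadjusted p under 0.05, against 8.95% of genes. The median member change was -0.49 (18 above 0, 44 below). Snord65 was 8.17, 8.49 and 7.65 with anti-Hsf1 and 13.1, 15.7, 28.6 and 23.5 with scramble, a change of -1.16 (SE 0.24, -1.68 to -0.65, adjusted p = 0.219). Snord49b, from the same host, was 12.8, 15.1 and 8.09 against 22.1, 17.7, 27.1 and 39.0, a change of -1.06 (-1.66 to -0.46, adjusted p = 0.385), and Snord49a was 9.33, 10.9 and 15.3 against 19.4, 10.1, 39.3 and 34.7 (-0.92, -1.75 to -0.09). Snord65 and Snord49b did not overlap between the groups and Snord49a did. Snord37, named like Snord65 after its values were seen, was 6.91, 8.01 and 8.13 against 11.6, 18.7, 31.7 and 31.7, with no overlap (-1.39, -2.11 to -0.67, adjusted p = 0.327). For Snord15b the change was 0.02 (-0.56 to 0.61) and for Snord17 0.20 (-0.47 to 0.88), and without scramble replicate 1 they were 0.30 and 0.44.

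The highest scramble values of Snord65, Snord49b and Snord37 under amyloid beta were those of replicates 3 and 4, which are among the 3 libraries that stood apart. In those 3 libraries the members summed to 901 to 929, against 435 to 713 in the other 11, and without Snord15b and Snord17 to 838 to 848 against 354 to 614. All 3 were above the other 11 for 14 of 63 members (22.2%), against 15.5% of 17291 genes, and below them for 2 (3.17%), against 11.8%. Among the 14, Snord43 was 53.9 to 71.6 against 9.44 to 42.3, Snord49b 27.1 to 39.0 against 8.09 to 25.4 and Snord93 31.1 to 49.9 against 1.96 to 14.1. The 2 that were lower were Snord2 (0.450 to 0.866 against 0.877 to 37.5) and Snord98 (2.34 to 4.52 against 4.72 to 13.2), and Snord15b (31.3 to 43.7 against 33.1 to 86.6) and Snord17 (31.7 to 43.6 against 20.04 to 61.8) overlapped. These members were named after their values were seen. Transcripts of the core proteins stood apart too, with Nop56 at 218 to 221 against 42.96 to 89.8 and the methyltransferase Fbl at 67.3 to 74.9 against 36.3 to 45.9. Nolc1, which encodes a nucleolar chaperone, was at 48.0 to 49.9 against 17.3 to 27.1. Not all assembly and trimming genes did, since Znhit3 (12.7 to 15.8 against 10.8 to 16.5) and Parn (13.1 to 15.8 against 12.2 to 17.6) overlapped. The H/ACA and Cajal body RNAs overlapped, at 497 to 603 against 446 to 965. Of that sum, Scarna2 alone was 54.5 to 113 against 61.5 to 243. In the same 3 libraries the 5 microglial markers summed to 37.2 to 38.2 against 4.83 to 9.66, with P2ry12 at 0 throughout, and the 5 astrocytic markers to 35.4 to 43.0 against 4.59 to 17.05, with Aqp4 at 0. Each sum was nearly all a single gene. Tmem119 was 37.01 to 37.98 against 4.61 to 9.58, and Gja1 was 35.2 to 42.8 against 4.38 to 16.7. The other markers of both lists did not stand apart and were at most 0.850 in any HT-22 library. The sums therefore do not show a shift of either marker list as a whole. Median member coverage was 11.2 to 19.0 against 3.28 to 8.97, and relative depth 1.203 to 2.60 against 0.724 to 1.21. The part of these in the snoRNA levels was not tested.

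Without those libraries, the median member change for anti-Hsf1 against scramble under amyloid beta was -0.04 in place of -0.49, with 0 called (0.0231% of genes) and 7 members (11.3%) at an unadjusted p under 0.05, against 7.76% of genes. The change of Snord65 was then -0.75 (adjusted p = 0.195), that of Snord37 -0.86 (adjusted p = 0.540), that of Snord49b -0.72 (adjusted p = 0.517) and that of Snord49a -0.26 (adjusted p = 0.897). Under reverse peptide the median was -0.02 in place of -0.13 (-0.66 for Snord104), for the peptides under anti-Hsf1 LNA, whose libraries are the same, it was again -0.42, and for the peptide by LNA interaction -0.11 in place of -0.40. Those fits called 0 members, against 0.0%, 0.0231% and 0.0231% of genes, and had 6 (9.68%), 12 (19.4%) and 6 (9.68%) members at an unadjusted p under 0.05, against 5.0%, 9.25% and 7.85% of genes. With TPM as deposited, where the median of all genes was -0.62 and 50.7% of genes were called, 23 members were called lower under amyloid beta and none higher, Snord65, Snord37 and Snord49b among them. The peptide by LNA interaction called 0 of 62 members and 0.0% of genes, with 5 members (8.06%) and 5.18% of genes at an unadjusted p under 0.05. Its lowest member p was that of Snord37, at -1.32 (-2.34 to -0.29, adjusted p = 0.823), and for Snord15b it was -0.44 (-1.26 to 0.39; -0.16 without scramble amyloid beta replicate 1). Without the 3 libraries these were -0.95 and -0.58. On deposited TPM it called 10 members and 25.3% of genes.

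The 20 genes of the box C/D particle, its assembly and snoRNA trimming were compared in the same fits. Transcripts of the core proteins differed between the systems: Fbl averaged 19.97 ± 2.90 in hippocampus and 48.0 ± 13.2 in HT-22, Nop56 30.1 ± 3.97 and 100.4 ± 66.1, Nop58 12.8 ± 2.07 and 26.2 ± 10.0, and Snu13 35.2 ± 5.18 and 23.1 ± 5.59 (SD, n = 17 and 14). Snu13, which also binds spliceosomal U4, had the higher mean in hippocampus on this scale and the lower one with TPM as deposited (26.2 against 34.1). Without the 3 HT-22 libraries that stood apart the HT-22 means were 41.6 ± 3.24 for Fbl, 68.0 ± 17.4 for Nop56, 22.1 ± 6.56 for Nop58 and 20.6 ± 2.42 for Snu13 (SD, n = 11). Of the 20 genes, 1 was called in any of the 11 contrasts (1 of 20, 5%, in the contrast at 6 months, against 1.57% of genes). Znhit3, an assembly factor of box C/D particles, fell at 6 months, from 19.2 ± 1.02 in wild type to 9.89 ± 0.79 in APP NL-G-F (SD, n = 3 each), a change of -0.89 (SE 0.10, -1.11 to -0.68, adjusted p = 0.000812). With TPM as deposited it was not called (-0.26, adjusted p = 0.149), while the 13 other alternatives kept the call. Genotype and sex cannot be told apart there.

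Among the 45 hosts, 1 was called in any contrast (1 of 42 tested there, 2.38%, against 3.01% of genes): 2410006H16Rik rose from 20.9, 16.1 and 21.7 at 3 months to 36.8, 27.0 and 29.3 at 12 months in APP NL-G-F, a change of 0.64 (SE 0.16, 0.29 to 0.99, adjusted p = 0.0487). The call was lost under 10 of 14 alternatives, TPM as deposited and leaving out 5 of the 6 libraries among them, with adjusted p of 0.0516 to 0.200 and changes of 0.51 to 0.73. Its snoRNAs did not pass in that contrast. Snord49a had a change of 0.19 (-1.13 to 1.51), Snord49b of -0.47 (-1.58 to 0.64) and Snord65 of -0.38 (-1.65 to 0.90), and leaving out single libraries moved these to between -0.13 and 0.55, -1.02 and -0.19, and -0.75 and -0.15. Of the H/ACA and Cajal body RNAs, Snora3 (-3.58, adjusted p = 0.0159) and Snora34 (-2.27, adjusted p = 0.0032) fell in the same contrast, 2 of 40 tested (5%, against 3.01% of genes). Snora3 was 14.2, 16.9 and 12.0 at 3 months and 0.947, 0.0203 and 0.0387 at 12 months, which is near the floor. In wild type at 6 months it was 0.287, 10.8 and 0.824, so it also ranged widely within a group. The call of Snora3 was lost without 12-month replicate 2 or 3 (adjusted p = 0.0661 and 0.0742).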

How the data were processed

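Long-RNA libraries (rRNA-depleted, NEBNext Ultra, per the labels' protocols) of 17 hippocampi and 14 HT-22 cultures were analysed from gene abundance tables. Per the file headers, each deposited table gives coverage, FPKM and TPM per gene. TPM was used for levels, and coverage and FPKM were used only for depth. The submitters' processing notes list HISAT2 2.1.0, StringTie 1.3.4d, cutadapt 1.18, BWA 0.7.17, bedtools 2.26.0 and FastQC with no role or order, and the builds mm10 and GRCm38. The strand setting and the annotation release are not stated by the labels or headers. TPM totals were 999823 to 999917 per library. The short-RNA files were not used here.

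TPM was scaled by the median of ratios over 14020 genes above 0 in all 31 libraries. Tests were made with limma 3.58.1 (R 4.3.3; trend and robust) on log2(scaled TPM + 1), which understates changes of low genes, 1 fit per system with a mean per group. Genes had a mean TPM of at least 1 within the system, which 50 members passed in hippocampus, 62 in HT-22 and 49 in both. P-values were adjusted by Benjamini-Hochberg over all genes tested and called below 0.05, and intervals are 95%. The fit was tested on simulated data. Since TPM does not hold counts, no count model was used.

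The members, gene lists and naming rule were chosen with earlier results of these data known. The rule named members of the imprinted loci and of Hspa8, members with promoters of their own or no methylation target, the 6 highest per system, called members, and those at the threshold (16 in all), and called hosts and particle genes. Gene IDs were matched to GENCODE M21 (53934 of 53975, with 52975 at the same coordinates and all 63 members among them). A host was the smallest other gene over 500 bases on the same strand that holds the member. Sequences came from GRCm38.p6, read with pysam 0.24.0 and compared with Biopython 1.88. Python 3.11.15, pandas 2.3.3, numpy 2.4.6, scipy 1.17.1 and matplotlib 3.10.9 were used. Alternatives were TPM as deposited, scaling within a system, scaling on protein-coding genes, a pseudocount of 0.1, no filter, a mean TPM of at least 5, a replicate block, the compared groups alone, leaving out each library, and, added after seeing the data, leaving out 3 HT-22 libraries.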

Additional observations from a re-analysis of the deposited data

Results flagged for a closer look

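In groups of 4, a library was marked when its gap to the nearest of the others exceeded Dixon's 95% limit for that group's range. Chance marks about 1 in 20 groups, and 5 of 34 were marked, all among the scramble HT-22 groups of 4. In amyloid beta replicate 1, 3 members had the highest value of their group: Snord15b at 86.6 against 36.7 to 43.7, Snord13 at 9.79 against 2.84 to 3.39, and Snord22 at 13.6 against 0.034 to 1.76. Snord60 was 2.78 in amyloid beta replicate 2, and Snord1c was 4.07 in reverse peptide replicate 2, each the highest of its 4. Without amyloid beta replicate 1, the Snord15b change for peptide under scramble LNA was 0.11 in place of 0.38, for LNA under amyloid beta 0.30 in place of 0.02, and for the interaction -0.16 in place of -0.44, none of them called.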

How the results depend on the processing

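The main fits called 0 members in each of the 11 contrasts. With TPM as deposited, which shifts the median of all genes, the counts were 7 for genotype at 6 months (median shift 0.60), 3 for genotype by age, 8 for peptide under anti-Hsf1 LNA (-0.52; 24.3% of genes called), 23 for LNA under amyloid beta (-0.62) and 10 for peptide by LNA (-0.68; 25.3%); the other 6 contrasts stayed at 0. Under that scaling Snord91a at 6 months reversed to 0.60. With the compared groups alone the count was 1 at 12 months (0.426% of genes) and 1 for age in wild type (0.0841%). Leaving out each library gave 0 to 1 members at 6 months (Snord15a without APP NL-G-F replicate 1; 1.3% of genes), 0 to 1 at 12 months (Snord37 without wild-type replicate 3; 0.224%), 0 to 1 for age in wild type (Snord14e without 12-month replicate 1; 0.0448%), 0 to 1 for genotype by age (Snord34 without APP NL-G-F 3-month replicate 2, 0.902%; Snord12 and Snord14d without wild-type 6-month replicates 2 and 3, 0.46% and 0.364%) and 0 to 1 for LNA under amyloid beta (Snord68 without anti-Hsf1 replicate 3; 0.0868%). The replicate block called 0 members in all 11 contrasts. Same-numbered libraries correlated at -0.14 to 0.22 in hippocampus (40 pairs) and -0.23 to 0.60 in HT-22 (19 pairs). Differently numbered libraries correlated at -0.18 to 0.16 and -0.57 to 0.58. The value of 0.60 joins replicates 4 of the scramble groups, both among the HT-22 libraries that stood apart. As the ranges were alike, the numbers were not taken to pair the libraries. Scaling within a system, protein-coding scaling, the pseudocount of 0.1 and both filters left every count at 0, with 11 members tested at a mean TPM of at least 5 in hippocampus. Among 159 named member and contrast pairs, 82 had the opposite sign under at least 1 alternative, and 14 of 2532 alternative values changed their call. Low coverage limits most members: at a median coverage of 1.44 to 3.89 reads per base in hippocampus, intervals often span more than a log2 unit on each side, and with 2 or 3 mice per group a change of that size could be missed.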
